A study of Mus musculus with 28 samples.

Results

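The divergence of rd1 rods from wild-type (WT) rods between postnatal day 6 (P6) and postnatal day 10 (P10) was measured as a difference of differences. For each gene, the log2 change from P6 to P10 in WT rods was subtracted from the same change in rd1 rods, and the result is called the divergence here. A genotype offset that is equal at both ages cancels in this measure. The comparison took every P6 and P10 library, 13 of the 28 RNA-seq libraries in the study. They comprised 3 libraries of rd1 rods at P6, 2 of rd1 rods at P10, 4 of WT rods at P6 and 4 of WT rods at P10. P6 rd1 replicates 1 and 3 were near-identical and were averaged to 1 sample, so 12 samples entered the comparison, with 2 samples for rd1 at each age. Genes on autosomes were reported, 17830 of the 18608 genes tested.

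The rd1 mice were Pde6b rd1/rd1; TgNrlp-GFP, and the WT mice were TgNrlp-GFP, so the rods of both genotypes carried a green fluorescent protein driven by the promoter of the rod gene Nrl. Retinas were dissociated with papain and the GFP-positive cells were sorted by flow cytometry before RNA was extracted. The sort therefore takes every cell with an active Nrl promoter, and the labels do not state the strain background, the sex or whether replicates were separate animals. The p-values measure the spread between these samples, which may be technical.

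Rods build their outer segments and the light-response machinery in the second postnatal week. The enzyme that lowers cGMP when light is absorbed is the phosphodiesterase of rods, Pde6b encodes its beta subunit, and rd1 is a loss-of-function allele. In rd1 rods cGMP builds up, the cGMP-gated channels admit more calcium, and the rods die soon after their outer segments begin to form. Heat shock proteins refold damaged proteins, and immediate early genes are transcribed within minutes of a rise in calcium or cAMP.

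The rod transcription factor gene Nrl, whose promoter drove the sorted label, was present in all 12 samples. It lay between 2333 and 2665 CPM (counts scaled to the same library total) in P6 rd1, between 1603 and 2534 CPM in P6 WT, between 2571 and 2975 CPM in P10 rd1 and between 2137 and 2649 CPM in P10 WT. Depth differed by genotype and not by age, with 16.9 to 21.4 M counts in the rd1 samples and 11.9 to 15.0 M counts in the WT samples. Simulated data gave back 18.7% of 2-fold and 64% of 4-fold divergences, in genes above a minimum mean count. P6 WT replicate 1 and P10 WT replicate 5 stood apart from their groups over genes at large. The chi-square between libraries over genes, per degree of freedom, was 105.8 to 120.1 for pairs with the first. It was 42.93 to 86.21 for pairs with the second, and at most 39.1 for any other pair within a group. P6 WT replicate 1 also had 27793 genes detected, against 23009 to 23539 in the other P6 WT samples. Both libraries stood apart in immediate early genes too. Fos, which cell dissociation can raise, was at 270.0 CPM in the first and 514.8 CPM in the second, against 11.3 to 54.3 CPM in the other 6 WT samples. Xist lay between 0.842 and 1610 CPM in P10 WT and between 937 and 1019 CPM in P10 rd1, so the sexes were not balanced, and the part of sex in the results was not tested.

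Pde6b itself did not diverge, and its level was lower in rd1 rods at both ages (chromosome 5, 108388391 to 108432397 on GRCm38). It stood at 421 and 372 CPM in the P6 rd1 samples and at 1112 and 1375 CPM in the P10 rd1 samples. The WT samples lay between 886 and 1641 CPM at P6 and between 2580 and 4138 CPM at P10. The genotypes did not overlap at either age. Pde6b rose in both, by a log2 change of 1.8 ± 0.36 (SE) in rd1 and 1.38 ± 0.25 in WT, and its divergence of 0.41 ± 0.43 did not pass the threshold (adjusted p = 0.875).

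Of the 17830 autosomal genes, 30 diverged at an adjusted p under 0.05 (0.168%; edgeR quasi-likelihood test with Benjamini-Hochberg adjustment). The divergence was higher, towards rd1, for 27 of them (0.151%) and lower for 3 (0.0168%). At an unadjusted p under 0.05, 663 genes were higher (3.72%) and 630 lower (3.53%), 7.25% of those tested in all, so the excess of higher calls appeared at the strict threshold and not below it. The median divergence over all autosomal genes was -0.01, and 90% of the genes lay between -1.0 and 1.46 (5th to 95th percentile). The number of higher genes was 9 without P6 rd1 replicate 2, 11 without P10 rd1 replicate 2 and 17 without P10 WT replicate 3, and the number of lower genes 1 without P10 rd1 replicate 2 and 5 without P10 WT replicate 2. Of the 27 higher genes 25 were protein coding. Since these are bulk samples, fewer cells of a type and less RNA per cell cannot be told apart.

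**Figure D1:**
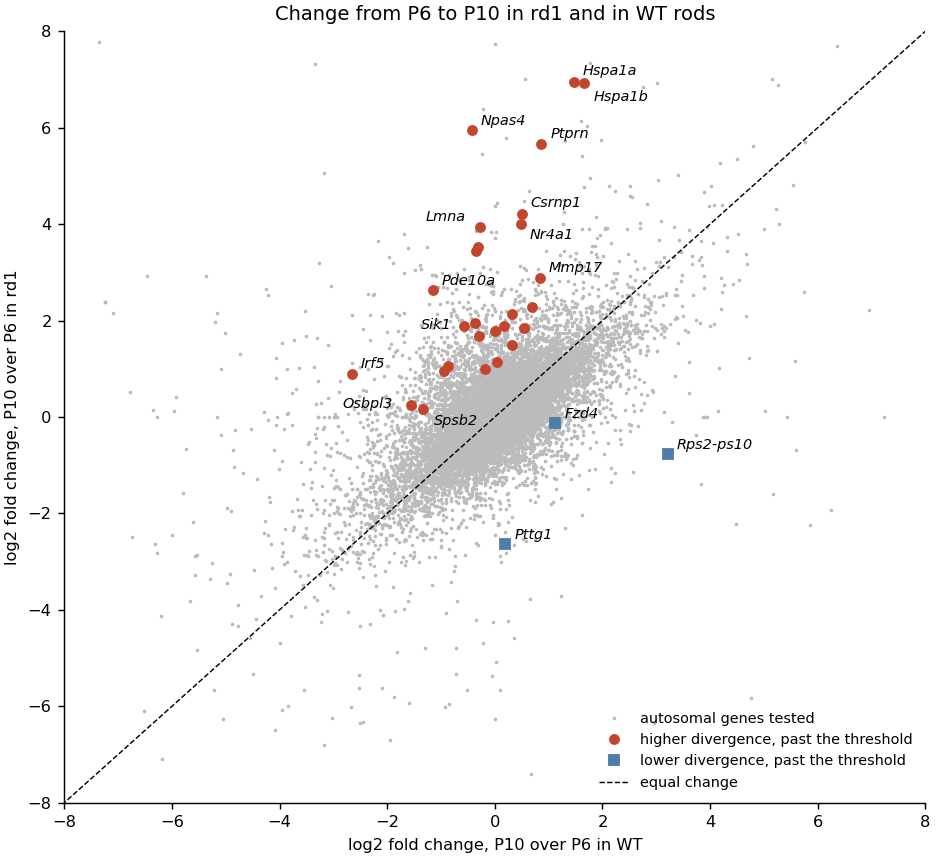
Log2 fold change from P6 to P10 in rd1 rods (vertical axis) against that in WT rods (horizontal axis), with 1 grey dot for each autosomal gene tested. Red circles mark the 27 genes with a higher divergence past the threshold and blue squares the 3 with a lower one. The dashed line marks equal change, and 4 genes beyond 8 on either axis are not shown. Hspa1a and Hspa1b stand at 6.94 and 6.92 in rd1, while Irf5, Osbpl3 and Spsb2 lie to the left because they fell in WT.

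The higher divergence came mostly from a rise in rd1. From P6 to P10, 24 of the 27 genes rose in rd1, where 5.62% of all autosomal genes rose. In WT 15 of the 27 did not change past the threshold, 6 rose and 6 fell (15.3% and 14.4% of all genes). Among the 24 that rose in rd1, the pair of changes was a rise in rd1 and none called in WT for 15 genes, a rise in both for 6, and a rise in rd1 with a fall in WT for 3, which were Pde10a, Qsox1 and Elmsan1. The other 3, Irf5, Osbpl3 and Spsb2, fell in WT without a called change in rd1. In 24 of the 27 genes both P10 rd1 samples lay above the other 10 samples, against 5.7% of all genes. In all 27 they lay above the 4 P10 WT samples, against 17.3% of all genes. The genes were chosen for a higher change in rd1 on these same samples, so the shares describe the choice and support nothing. The genes are taken below by role, and except for the named lists these groups were formed after the values were seen.

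The heat shock genes gave some of the largest differences. Hspa1a and Hspa1b encode the stress-inducible HSP70 chaperones and lie side by side on chromosome 17 (34969190 to 34972156 and 34956436 to 34959238 on GRCm38). Their promoters are shown because both genes moved together and are near copies of one another. The 250 bases before the start of each gene, from RefSeq on GRCm38.p6, are chr17:34972157-34972406 and chr17:34959239-34959488, both on the minus strand. They are identical at 247 of 250 bases. Capitals mark GAANNTTC, a pair of facing units of the heat shock element.
Hspa1a: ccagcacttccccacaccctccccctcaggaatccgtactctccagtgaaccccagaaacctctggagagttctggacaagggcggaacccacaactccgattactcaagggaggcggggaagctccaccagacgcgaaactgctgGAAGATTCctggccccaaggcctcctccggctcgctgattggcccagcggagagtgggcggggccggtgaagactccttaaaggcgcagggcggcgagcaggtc
Hspa1b: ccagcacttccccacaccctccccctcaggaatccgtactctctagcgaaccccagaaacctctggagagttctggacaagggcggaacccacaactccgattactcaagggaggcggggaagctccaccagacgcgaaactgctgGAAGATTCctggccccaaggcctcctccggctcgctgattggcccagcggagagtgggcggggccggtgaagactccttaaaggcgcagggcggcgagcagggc
The letters were found once in each, from base 147. This match is a description of the sequence and not evidence of binding.

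Hspa1a stood at 399 and 510.3 CPM in the P10 rd1 samples. It was at 5.18 and 3.01 CPM in P6 rd1, at 7.08, 2.72, 1.15 and 1.42 CPM in P6 WT, and at 6.30, 4.8, 10.8 and 9.53 CPM in P10 WT. The P10 rd1 samples thus stood far above the other 10, which all lay within the same low range. The rise was 123-fold in rd1 and 2.76-fold in WT, and the log2 divergence was 5.48 ± 0.79 (SE, adjusted p = 0.00109).

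Hspa1b was at 422 and 562 CPM in P10 rd1 and at or below 9.03 CPM in the other 10 samples, with a log2 divergence of 5.26 ± 0.72 (adjusted p = 0.000614). Because reads of such close copies can be split between them in counting, the level of each alone is uncertain. Their sum was 821 and 1070 CPM in P10 rd1, 7.04 to 10.1 CPM in P6 rd1, 2.29 to 12.6 CPM in P6 WT and 11 to 19.1 CPM in P10 WT. At P8 the sum was 5.79 to 13.5 CPM in rd1 and 8.65 to 15.9 CPM in WT, with the genotypes overlapping.

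Hsph1, which encodes an HSP110 chaperone that recharges HSP70, was at 239 and 200.1 CPM in P10 rd1 and between 52.4 and 75.7 CPM in the other 10 samples. The groups did not overlap, and the log2 divergence was 1.73 ± 0.26 (adjusted p = 0.00179). Of the 15 heat shock genes tested these 3 were higher (0.151% of all genes), 0 were lower (0.0168% of all genes) and 12 did not pass. The list's median divergence was 0.59 and 13 of its 15 members were above 0. Hspb1, a small heat shock protein gene, had a divergence of 2.90 ± 0.81 (adjusted p = 0.27), with 4.37 CPM in both P10 rd1 samples and at most 2.13 CPM elsewhere.

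The part of the papain dissociation in the calls of Hspa1a, Hspa1b and Hsph1 was not tested. Hspa1b kept its call in all 24 alternatives. Hspa1a lost it without P6 rd1 replicate 2 (5.12, adjusted p = 0.0676), and Hsph1 lost it without P6 rd1 replicate 1, the averaged pair (1.56, adjusted p = 0.0503).

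**Figure D2:**
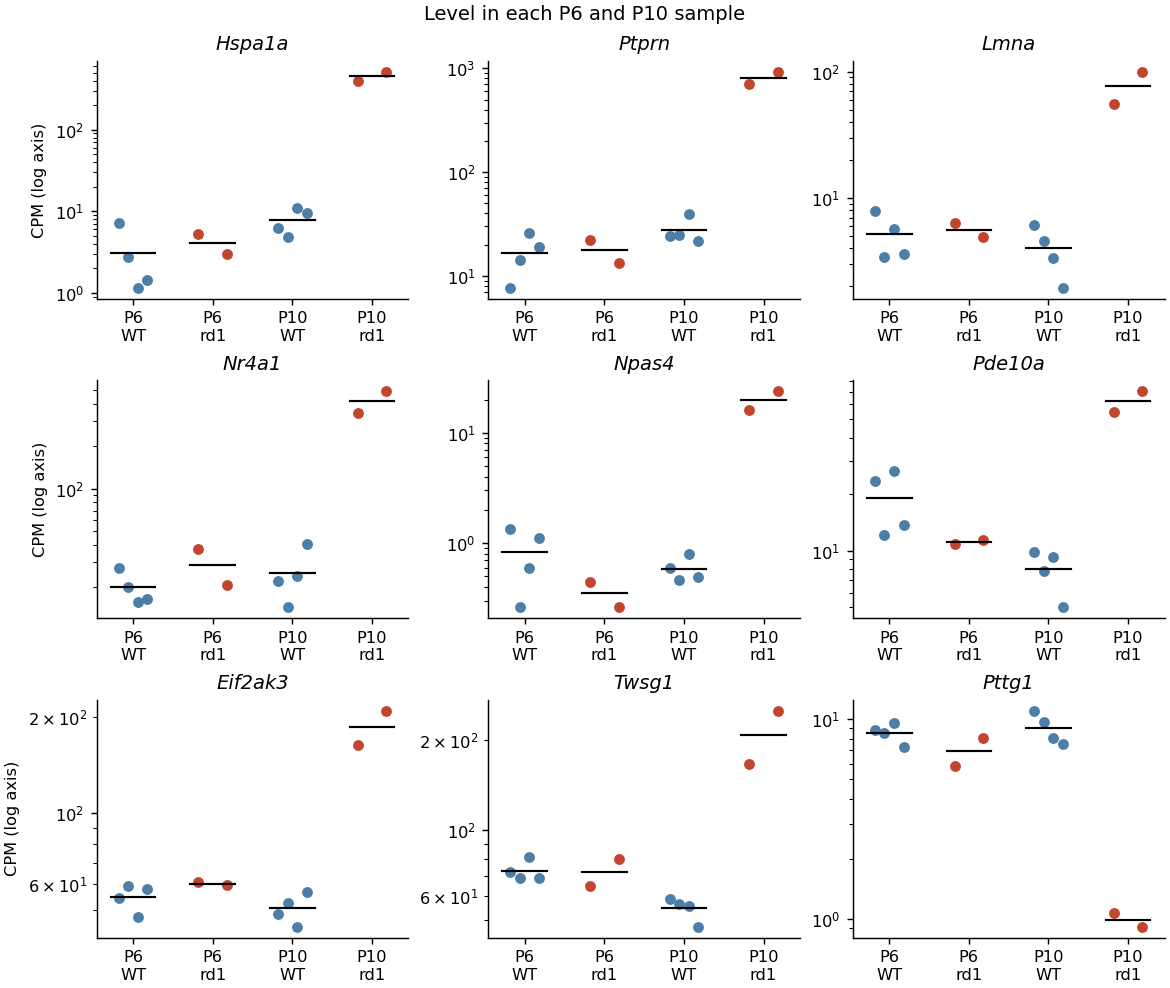
CPM on a log axis in each of the 12 P6 and P10 samples for 9 of the genes that diverged. Blue points are WT samples, red points are rd1 samples and black lines are group means. For 8 genes the P10 rd1 samples stand above all others, and for Pttg1 they stand below, at 1.06 and 0.91 CPM.

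Transcription factors that neurons switch on with activity formed the next group. Nr4a1 encodes an orphan nuclear receptor induced by calcium and cAMP, Npas4 a neuronal activity-dependent transcription factor, and Csrnp1 a nuclear protein of the immediate early class. Nr4a1 (chromosome 15, 101266846 to 101274792) was at 342 and 490.3 CPM in P10 rd1. In P6 rd1 it was at 37.2 and 20.7 CPM, in P6 WT at 27.6, 19.97, 15.7 and 16.4 CPM, and in P10 WT at 22.2, 14.4, 24.0 and 40.6 CPM. No other sample came within reach of the P10 rd1 samples, and its log2 divergence was 3.51 ± 0.49 (adjusted p = 0.000709). This call held without each of the 12 samples in turn and was lost only when P6 and P10 were fitted alone (3.56, adjusted p = 0.0601).

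Npas4 (chromosome 19, 4984355 to 4989971) was a rare transcript outside P10 rd1. It was at 16.2 and 23.8 CPM in P10 rd1, at 0.446 and 0.264 CPM in P6 rd1, between 0.261 and 1.35 CPM in P6 WT, and between 0.46 and 0.801 CPM in P10 WT. The log2 divergence of 6.37 ± 0.93 (adjusted p = 0.00111) was the largest of the 30, on few counts in 3 of the 4 groups. Its call was lost without P6 rd1 replicate 2 (5.94, adjusted p = 0.0691). Csrnp1 was at 25.0 and 37.4 CPM in P10 rd1 and between 0.439 and 2.44 CPM elsewhere, with a log2 divergence of 3.70 ± 0.70 (adjusted p = 0.0227). The call of Csrnp1 was lost without 7 of the 12 samples in turn (3.32 to 4.19).

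The promoters of Nr4a1 and Npas4 are printed because cAMP response elements are known in genes of this class. The windows are the 250 bases before the gene start, from RefSeq on GRCm38.p6: chr15:101266596-101266845 on the plus strand for Nr4a1 and chr19:4989972-4990221 on the minus strand for Npas4. Capitals mark TGACG, the short form of the cAMP response element, or CGTCA where it lies on the other strand.
Nr4a1: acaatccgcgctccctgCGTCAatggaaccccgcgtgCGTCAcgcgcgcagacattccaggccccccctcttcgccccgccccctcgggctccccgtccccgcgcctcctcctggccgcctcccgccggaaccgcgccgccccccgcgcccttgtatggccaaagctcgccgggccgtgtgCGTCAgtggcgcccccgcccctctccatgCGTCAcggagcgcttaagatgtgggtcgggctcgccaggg
Npas4: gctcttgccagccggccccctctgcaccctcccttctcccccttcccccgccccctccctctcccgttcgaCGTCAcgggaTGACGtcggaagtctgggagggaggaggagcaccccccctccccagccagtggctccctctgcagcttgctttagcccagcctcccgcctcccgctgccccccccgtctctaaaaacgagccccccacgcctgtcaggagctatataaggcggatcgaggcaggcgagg
The letters occurred at 4 places in Nr4a1 and at 2 in Npas4.

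Over the higher genes, 21 of 27 matched the RefSeq promoter table, with 29 windows of 250 bases. TGACG, searched on both strands, lay in 11 of the 29 windows (37.9%), against 17.8% of the 32851 windows of all genes. The windows belonged to 7 genes, which were Csrnp1, Npas4, Nr4a1, Osbpl3, Ptprn, Rbm17 and Spsb2. The full palindrome TGACGTCA, which contains TGACG, lay in 0 windows, against 1.55% of all. GAANNTTC lay in 3 windows (10.3%), those of Hspa1a, Hspa1b and Pde10a, against 6.69% of all. TAATCC, the letters bound by the photoreceptor factor CRX, lay in 0 windows on either strand, against 6.25%, and TGCTGA, part of the element bound by NRL, lay in 5 (17.2%), against 16.1%. TGACG, TGACGTCA and GAANNTTC were chosen after the values were seen, windows of 1 gene can overlap, and these counts carry no test.

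In the list of immediate early genes, 24 members were tested and 19 had a divergence above 0. Nr4a1 and Npas4 passed (0.151% of all genes were higher), 0 were lower (0.0168% of all genes) and 22 did not pass. The list's median divergence of 1.12 was 0.33 without P6 WT replicate 1 and 1.57 without P10 WT replicate 5. At P10 alone, 11 of the 24 were higher in rd1 than in WT (7.98% of all genes). The members that did not pass differed in direction. Junb, a gene of the AP-1 family, was at 70.3 and 78.9 CPM in P10 rd1, at 49.3 and 32.1 CPM in P6 rd1, between 4.19 and 43.1 CPM in P6 WT and between 3.58 and 9.31 CPM in P10 WT. Its P10 rd1 samples were the highest of the 12, with a divergence of 2.13 ± 1.03 (adjusted p = 0.692). The divergences of Ier2 (1.82), Atf3 (1.47), Dusp1 (1.22) and Jun (1.13) also lay above 0. Fos was at 490.2 and 736 CPM in P10 rd1 and at 240.0 and 278 CPM in P6 rd1. In P10 WT it was at 26.6, 54.3, 38.5 and 515 CPM. P10 WT replicate 5 thus lay among the P10 rd1 samples, and the divergence of Fos was 0.34 ± 1.72 (adjusted p = 0.986). Egr1, another such transcription factor gene, was at 805 and 888 CPM in P10 rd1, at 854 CPM in P10 WT replicate 5 and between 84.3 and 125 CPM in the other P10 WT samples (divergence -0.12 ± 1.43, adjusted p = 0.998).

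The sum over the 24 immediate early genes was 2970 and 3650 CPM in P10 rd1, 1930 to 2050 CPM in P6 rd1, 772 to 1890 CPM in P6 WT and 521 to 2030 CPM in P10 WT. It was thus highest in the P10 rd1 samples. Its part in the calls of Nr4a1, Npas4, Csrnp1, Hspa1a, Hspa1b and Hsph1 was not tested. In P10 WT replicate 5 Fos and Egr1 matched P10 rd1. Fosb was at 174 CPM there, against 2.11 to 3.20 CPM in the other P10 WT samples and 289 and 419 CPM in P10 rd1. Jun, Junb, Ier2, Dusp1 and Atf3 also lay below both P10 rd1 samples. Jun was at 66.2 CPM there, against 235 and 307 CPM in P10 rd1 and 402 and 312 CPM in P6 rd1. Junb was at 9.31 CPM in this library. In this library Npas4 was at 0.488 CPM, Nr4a1 at 40.6 CPM, Hspa1a at 9.53 CPM and Ptprn at 21.8 CPM. That Nr4a1 level was the highest of the P6 and P10 WT samples. Without P6 WT replicate 1 and P10 WT replicate 5, 29 genes were higher and 5 lower, and 25 of the 30 calls were shared.

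**Figure D3:**
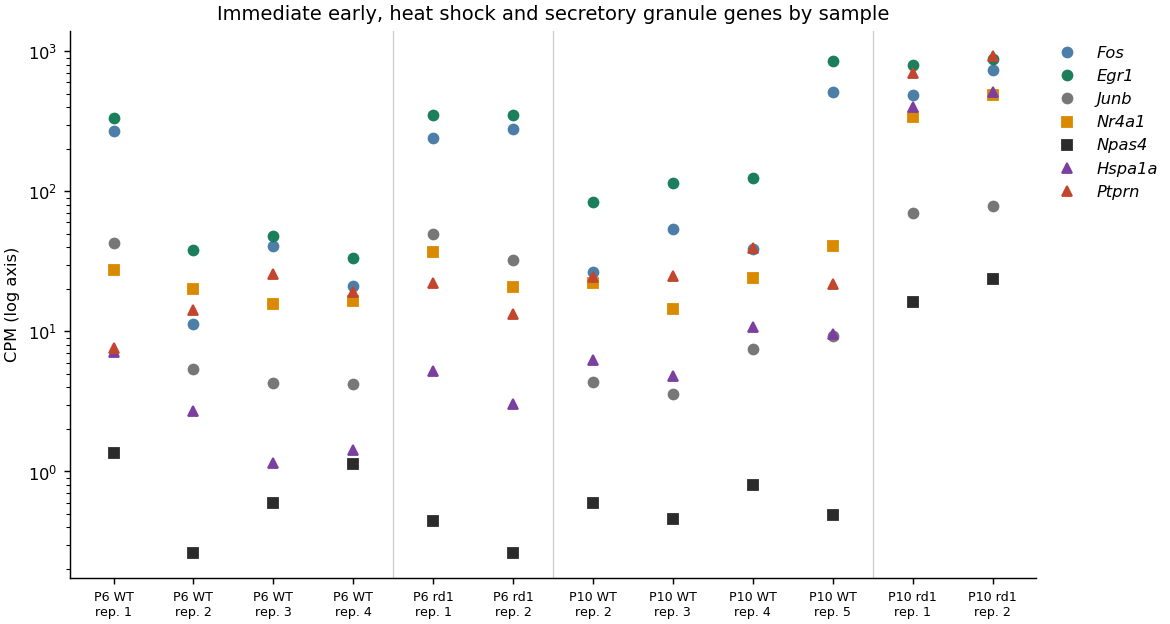
CPM on a log axis for 7 genes in each of the 12 samples, with grey lines between the groups. Circles are the immediate early genes Fos, Egr1 and Junb, squares are Nr4a1 and Npas4, and triangles are Hspa1a and Ptprn. Fos and Egr1 are as high in P10 WT replicate 5 as in P10 rd1, while squares and triangles are high in the P10 rd1 samples alone.

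Among the higher genes were 5 that encode enzymes of cyclic nucleotide, kinase and phosphatase signalling, Pde10a, Sik1, Sik2, Camk2g and Ppm1h. Pde10a encodes a phosphodiesterase that breaks down cAMP and cGMP, and it moved in opposite directions in the genotypes. It was at 10.9 and 11.5 CPM in P6 rd1 and at 54.5 and 70.5 CPM in P10 rd1. In WT it was at 23.6, 12.2, 26.5 and 13.7 CPM at P6 and at 9.84, 7.80, 9.23 and 5.00 CPM at P10. It rose in rd1 by 2.63 ± 0.39 and fell in WT by 1.15 ± 0.27 on the log2 scale, a divergence of 3.78 ± 0.47 (adjusted p = 0.000281). The call was kept in all 24 alternatives.

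Sik1 and Sik2 encode salt-inducible kinases, which hold back the coactivators of CREB. Sik1 was at 40.2 and 47.6 CPM in P10 rd1 and between 4.55 and 15.0 CPM in the other 10 samples, with a divergence of 2.46 ± 0.39 (adjusted p = 0.00274). Sik2 was at 186 and 236 CPM in P10 rd1 and between 43.7 and 105 CPM elsewhere, with 1.60 ± 0.32 (adjusted p = 0.0421). For both, the P10 rd1 samples were the highest of the 12. Camk2g, a subunit of calcium/calmodulin-dependent kinase II, diverged by 1.29 ± 0.24 (adjusted p = 0.0227) and Ppm1h, a serine/threonine phosphatase gene, by 1.18 ± 0.24 (adjusted p = 0.0406). Sik1 lost its call without P6 rd1 replicate 2 (2.25, adjusted p = 0.13) or P10 rd1 replicate 2 (2.29, adjusted p = 0.0528), while Sik2 and Ppm1h each lost theirs without 9 of the 12 samples in turn. Camk2g lost it without P6 rd1 replicate 2, P10 rd1 replicate 2, P6 WT replicate 3 or P10 WT replicate 3 (1.00 to 1.26).

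Ptprn, Eif2ak3, Qsox1, Twsg1 and Mmp17 encode proteins of the secretory pathway or the cell surface. Ptprn encodes IA-2, a membrane protein of dense-core secretory granules (chromosome 1, 75247027 to 75264502). It was at 703 and 925 CPM in P10 rd1. In P6 rd1 it was at 22.2 and 13.3 CPM, in P6 WT at 7.64, 14.2, 25.6 and 19.1 CPM, and in P10 WT at 24.3, 24.7, 39.3 and 21.8 CPM. The change was 50.9-fold in rd1 and 1.82-fold in WT, both past the threshold, and the divergence of 4.81 ± 0.49 had the smallest adjusted p of all genes (3.02e-05).

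Eif2ak3 encodes PERK, the kinase of the endoplasmic reticulum that slows translation when proteins misfold. It was at 164 and 209 CPM in P10 rd1 and between 44.2 and 61.0 CPM in the other 10 samples, a divergence of 1.78 ± 0.23 (adjusted p = 0.000281). Of 28 genes of the unfolded protein and integrated stress response it was the 1 that passed, 0 were lower, and the median was 0.29 with 23 members above 0 (median 0.15 without P10 rd1 replicate 2). Asns, the asparagine synthetase gene (1.46 ± 0.37, adjusted p = 0.206), and Chac1, a glutathione-degrading enzyme gene (2.55 ± 0.82, adjusted p = 0.404), did not pass in edgeR. Asns passed in DESeq2 (adjusted p = 0.0179) and limma-voom (adjusted p = 0.0395). Asns was at 29.2 and 41.3 CPM in P10 rd1 and between 9.90 and 16.6 CPM in the other 10 samples.

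Qsox1, an oxidase that forms disulfide bonds in secreted proteins, rose in rd1 and fell in WT. It was at 59.2 and 57.6 CPM in P6 rd1, 93.6 and 110.1 CPM in P10 rd1, 46.0 to 88.9 CPM in P6 WT and 19.6 to 34.9 CPM in P10 WT (divergence 1.90 ± 0.30, adjusted p = 0.00316). Twsg1, a secreted modulator of BMP signalling, was at 166 and 250.1 CPM in P10 rd1 and between 47.5 and 81.2 CPM elsewhere (1.98 ± 0.22, adjusted p = 6.89e-05). Mmp17, a matrix metalloproteinase anchored in the membrane, was at 53.6 and 48.9 CPM in P10 rd1 and between 5.93 and 15.5 CPM elsewhere (2.05 ± 0.37, adjusted p = 0.014). In Twsg1 and Mmp17 the P10 rd1 samples were the highest of the 12, and so they were in Qsox1. Qsox1 lost its call without P6 rd1 replicate 2 (1.86, adjusted p = 0.0842) or P10 rd1 replicate 2 (1.73, adjusted p = 0.0624). Mmp17 lost it when any 1 of the 4 rd1 samples was left out (1.94 to 2.17, adjusted p up to 0.29), and Ptprn, Eif2ak3 and Twsg1 kept theirs in all 24 alternatives.

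Lmna, which encodes the nuclear lamins A and C, was at 55.9 and 99.7 CPM in P10 rd1. It was at 6.33 and 4.89 CPM in P6 rd1, at 7.89, 3.43, 5.71 and 3.57 CPM in P6 WT, and at 6.11, 4.59, 3.36 and 1.94 CPM in P10 WT. The P10 rd1 samples lay apart from the rest, with a divergence of 4.23 ± 0.57 (adjusted p = 0.000611) that was kept in all 24 alternatives. Lmna was the only member of the 26 chromatin and nuclear genes tested to diverge, and the median of that list was -0.03. Ctnnal1, the alpha-catulin gene of the cell cortex, was at 138 and 172 CPM in P10 rd1 and between 26.5 and 59.5 CPM elsewhere (2.31 ± 0.29, adjusted p = 0.000281), and it too kept its call throughout.

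Genes of protein and RNA handling had smaller divergences. Lonrf1, a gene with RING and LON domains, stood at 1.82 ± 0.32 (adjusted p = 0.011), Eif3b, a subunit of translation initiation factor 3, at 1.18 ± 0.23 (adjusted p = 0.03), and Rbm17, a splicing factor, at 1.1 ± 0.20 (adjusted p = 0.0182). Elmsan1, a scaffold of a histone deacetylase complex, stood at 1.92 ± 0.39 (adjusted p = 0.0406). Each had its 2 highest values of the 12 in P10 rd1. None kept its call without each sample in turn: Lonrf1 lost it without P6 rd1 replicate 2 or P10 rd1 replicate 2 (1.63 and 1.53), Rbm17 without these or P10 WT replicate 3 (0.79 to 1.07), Eif3b without 7 and Elmsan1 without 10.

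In 3 genes the change past the threshold was a fall in WT. Their log2 changes in rd1 did not pass, at 0.90 ± 0.52 for Irf5, 0.26 ± 0.26 for Osbpl3 and 0.16 ± 0.24 for Spsb2. Irf5, an interferon regulatory factor of myeloid cells, was at 8.99, 5.00, 19.9 and 12.8 CPM in P6 WT and at 2.74, 1.70, 1.37 and 1.03 CPM in P10 WT. In rd1 it was at 9.31 and 4.93 CPM at P6 and at 7.78 and 16.0 CPM at P10, so the rd1 ages overlapped (divergence 3.55 ± 0.67, adjusted p = 0.0227). Osbpl3, an oxysterol-binding protein gene, fell in WT by 1.56 ± 0.20 (divergence 1.81 ± 0.33, adjusted p = 0.0162). Spsb2, an adaptor of a ubiquitin ligase, fell in WT by 1.34 ± 0.18 (divergence 1.5 ± 0.31, adjusted p = 0.0421). Irf5 lost its call without 6 of the 12 samples in turn, Osbpl3 without each of the 4 rd1 samples, and Spsb2 without 10 samples.

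The 2 higher genes that are not protein coding were Ttc39aos1, annotated as antisense (3.84 ± 0.73, adjusted p = 0.0227), and the lincRNA Gm26532 (3.81 ± 0.74, adjusted p = 0.0266). Ttc39aos1 was at 14.1 and 19.3 CPM in P10 rd1 and at most 2.48 CPM elsewhere, and Gm26532 at 4.06 and 8.88 CPM and at most 0.775 CPM. The strand setting of the counting is not given in the sources used here, so reads of Ttc39aos1 and of the gene on the other strand may not have been separated. Ttc39aos1 lost its call without 4 of the 12 samples in turn and Gm26532 without 7.

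The 3 lower genes differed in their course. All 3 were higher in rd1 than in WT past the threshold at P2 and at P4 (1.45% and 1.62% of all genes). Pttg1 encodes securin, a protein that blocks the separation of sister chromatids until anaphase. It was at 1.06 and 0.91 CPM in P10 rd1, at 5.85 and 8.08 CPM in P6 rd1, between 7.30 and 9.57 CPM in P6 WT and between 7.50 and 11.1 CPM in P10 WT. The P10 rd1 samples were the lowest of the 12, as in 6.25% of all genes. At P2 and P4 Pttg1 was at 12.2 to 25.4 CPM in rd1 and at 6.77 to 12.3 CPM in WT. Its level in rd1 was thus already lower by P6. Pttg1 fell in rd1 by 2.64 ± 0.34 on the log2 scale and did not change past the threshold in WT, and its divergence of -2.83 ± 0.40 (adjusted p = 0.000781) was kept in all 24 alternatives. Of the 34 progenitor and proliferation genes tested 0 diverged, which is near the share of all genes (0.168%) and says little about them. Of these genes 28 fell in WT (14.4% of all genes) and 18 in rd1 (5.69% of all genes). Their median divergence of 0.39 was 0.09 without P6 WT replicate 3 and 0.77 without P6 rd1 replicate 2.

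Fzd4, the receptor for norrin in retinal vessel growth, rose in WT and did not change past the threshold in rd1. It was at 22.3 and 22.2 CPM in P6 rd1 and at 18.9 and 17.9 CPM in P10 rd1, and it went from 11.2 to 15.6 CPM in P6 WT to 22.7 to 28.5 CPM in P10 WT (divergence -1.26 ± 0.26, adjusted p = 0.0429). It lost its call without 10 of the 12 samples in turn. Rps2-ps10, a transcribed pseudogene of the ribosomal protein gene Rps2, rose in WT from 0.876 to 2.85 CPM at P6 to 8.93 to 23.0 CPM at P10. In rd1 it was at 265 and 224 CPM at P6 and at 188 and 74.3 CPM at P10, while in the P8 rd1 samples, which were of the shallower depth class, it was at 3.19 to 7.71 CPM. Only at P8 were the rd1 libraries of that class, so depth class and age cannot be told apart among them. The P6 and P10 WT libraries were all of the shallower class, and its rise in WT was 3.21 on the log2 scale. The part of depth in these values was not tested. Reads of it may come from near copies. Its divergence was -3.98 ± 0.62 (adjusted p = 0.00251), and -3.48 without P10 rd1 replicate 2 (adjusted p = 0.066).

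P8 was not used in the divergence and lies between its ends. The P8 rd1 samples, at 11.1 to 13.8 M counts, were shallower than the P6 and P10 rd1 samples. Depth and age thus cannot be told apart between P8 and those ages in rd1. Among the 27 higher genes, rd1 was higher than WT past the threshold in 0 at P2, 0 at P4, 0 at P6, 3 at P8 and all 27 at P10. Over all genes rd1 was higher in 1.45% at P2, 1.62% at P4, 1.49% at P6, 1.18% at P8 and 7.98% at P10. P6 and P10 hold the samples of the divergence, so the counts at those ages are a description. The median difference of rd1 over WT for the 27 was 0.36 at P2, 0.09 at P4, 0.08 at P6, 0.43 at P8 and 2.06 at P10 on the log2 scale.

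The 3 genes already higher at P8 were Ptprn, Qsox1 and Nr4a1. Ptprn was at 84.7, 68.4, 78.0 and 97.4 CPM in the P8 rd1 samples and at 13.1 and 15.8 CPM in P8 WT, a log2 difference of 2.44 ± 0.37 (adjusted p = 0.000227). Qsox1 was at 61.7, 76.2, 64.5 and 77.2 CPM in P8 rd1 and at 20.1 and 31.3 CPM in P8 WT (1.39 ± 0.23, adjusted p = 0.000598). Nr4a1 was at 37.0, 42.9, 33.4 and 48.4 CPM in P8 rd1 and at 15.3 and 15.7 CPM in P8 WT (1.32 ± 0.36, adjusted p = 0.042). In each the genotypes did not overlap at P8, and both genotypes at P8 were of the same depth class. Pttg1 was lower there, as were 2.59% of all genes, at 2.12, 1.99, 1.58 and 1.91 CPM in rd1 against 7.73 and 6.70 CPM in WT (-2.02 ± 0.27, adjusted p = 4.15e-05). Hspa1a (-0.59, adjusted p = 0.608), Lmna (0.66, adjusted p = 0.429) and Npas4 (0.70, adjusted p = 0.657) had not changed past the threshold at P8. Csrnp1 (1.51, adjusted p = 0.117), Ttc39aos1 (1.39, adjusted p = 0.167) and Pde10a (1.1, adjusted p = 0.088) stood above 1 there without passing.

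**Figure D4:**
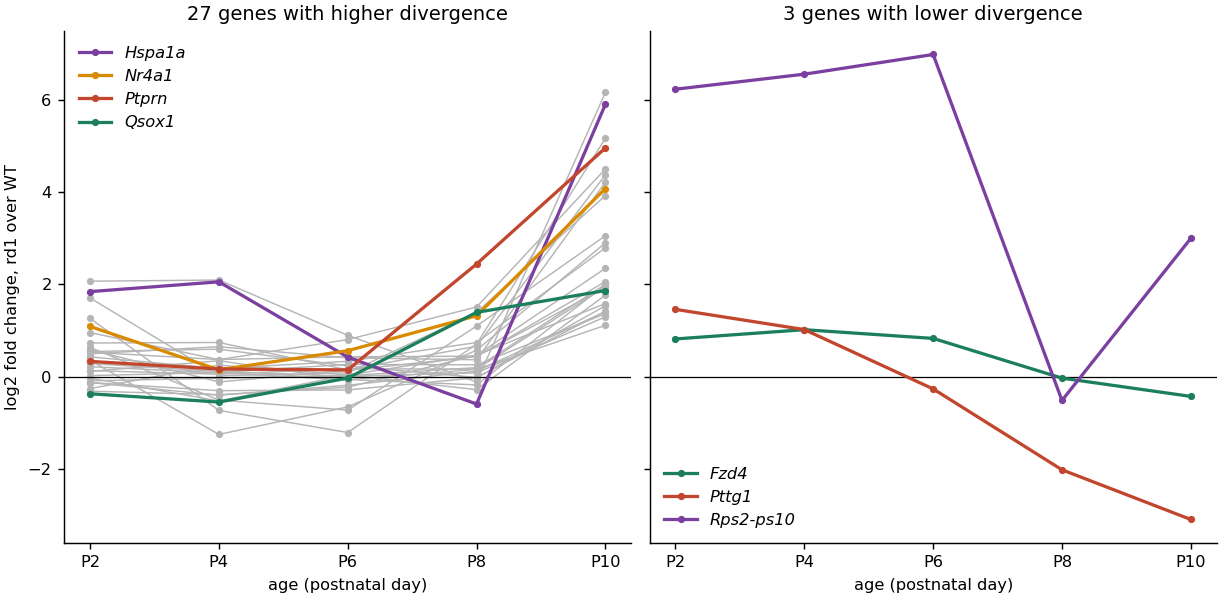
Log2 fold change of rd1 over WT at each of the 5 ages, with 1 line for each gene, for the 27 higher genes (left) and the 3 lower genes (right). Coloured lines are the genes in the keys and grey lines are the other higher genes. At P8 the 6 genes Ptprn, Csrnp1, Qsox1, Ttc39aos1, Nr4a1 and Pde10a stand above 1, of which Ptprn, Qsox1 and Nr4a1 passed the threshold, while Hspa1a stands at -0.59 there and at 5.90 at P10.

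No gene of the light response list passed the threshold of divergence in edgeR, where 0.168% of all genes did. In WT 24 of 26 phototransduction genes rose from P6 to P10 (15.3% of all genes), with a median log2 change of 2.01, and in rd1 19 of 26 rose (5.62% of all genes), with a median of 1.63. The median divergence was -0.44, 4 of 26 members were above 0, and 0 passed in either direction. The median was -0.21 without P10 WT replicate 5 and -0.61 without P10 rd1 replicate 2. Cnga1, the rod cGMP-gated channel subunit, had the smallest p among them (-1.72 ± 0.52, adjusted p = 0.369). It was at 323 to 342 CPM in P6 rd1 and 538 to 551 CPM in P10 rd1, and at 82.4 to 190.0 CPM in P6 WT and 574 to 1040 CPM in P10 WT. The rd1 samples were higher at P6, and the genotypes did not overlap at either age. Guca1b, a guanylate cyclase activator gene, stood at -1.27 ± 0.79 (adjusted p = 0.78). Of 36 outer segment and cilium genes 0 diverged (median -0.31), and 30 rose in WT and 11 in rd1. The visual cycle (0 of 10, median -0.44), photoreceptor synapse (0 of 28, -0.13) and photoreceptor transcription factors (0 of 20, 0.05) had no member past the threshold either. Without P10 WT replicate 5 the medians of the outer segment and visual cycle lists were -0.18 and -0.28, and those of the synapse and transcription factor lists lay between -0.21 and 0.18 without single samples.

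In metabolism and protein synthesis 0 genes diverged in the lists tested, where 0.168% of all genes did. The median divergence was 0.11 for 69 nuclear genes of oxidative phosphorylation, -0.06 for 28 of glycolysis and lactate, 0.03 for 34 of the citrate cycle, -0.12 for 26 of fatty acid oxidation and 0.21 for 20 of cholesterol synthesis. Without single samples these medians lay between -0.2 and 0.34. Among 33 genes of translation and the ribosome, 26 fell in WT and 0 fell in rd1 (14.4% and 5.69% of all genes), and 31 had a divergence above 0, with a median of 0.30 (0.15 without P6 WT replicate 1, 0.45 without P10 rd1 replicate 1). None of the 33 passed, and Rps2 came closest by p (1.26 ± 0.36, adjusted p = 0.279). Its reads may be split with those of its pseudogene Rps2-ps10, which diverged lower. Rps2 was at 172 and 181 CPM in P6 rd1 and at 191 and 336 CPM in P10 rd1. Rps2-ps10 was at 265 and 224 CPM, then at 188 and 74.3 CPM, in the same samples. In WT Rps2 was at 205 to 409 CPM at P6 and at 136 to 223 CPM at P10. The part of such a split in the Rps2 divergence was not tested. WT had 4 samples at each age and rd1 had 2, and over all genes 29.7% changed in WT and 11.3% in rd1, so counts of calls within a genotype are not comparable. The rd1 count, 2016 genes, was 414 without P6 rd1 replicate 2, 393 without P10 rd1 replicate 2 and 1189 without P10 rd1 replicate 1.

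Lists of cell death (0 of 32, median 0.14), oxidative stress (0 of 25, 0.25), autophagy and lysosome (0 of 27, 0.18), ion and calcium handling (0 of 36, 0.01), mitochondrial dynamics (0 of 32, 0.08) and interferon and inflammation (0 of 28, -0.03) had no member past the threshold in edgeR. Their medians lay between -0.14 and 0.29 without single samples. Cdkn1a, a cell cycle inhibitor gene, stood at 1.43 ± 0.65 (adjusted p = 0.655), and Hmox1, the heme oxygenase gene, at 1.86 ± 0.58 (adjusted p = 0.374). Gabarapl1, which marks autophagosomes, was at 117 and 162 CPM in P10 rd1, 43.6 to 45.9 CPM in P6 rd1, 49.0 to 56.7 CPM in P6 WT and 78.4 to 88.6 CPM in P10 WT. It rose by 1.79 in rd1 and by 0.81 in WT on the log2 scale, and its divergence of 0.98 ± 0.26 did not pass in edgeR (adjusted p = 0.234). It passed in DESeq2 (adjusted p = 0.0459) and in limma-voom (adjusted p = 0.0375).

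Markers of other cells varied between samples, their sums overlapped between most groups, and 0 of them passed in edgeR (0.168% of all genes did). P10 WT replicate 5 lay far below the other P10 WT samples in several. The bipolar marker Vsx1 was at 6.13 CPM there against 39.2 to 61.3 CPM, and the vessel marker Egfl7 at 0.571 against 7.82 to 12.6 CPM. The amacrine marker Gad1 was at 5.18 against 26.5 to 34.8 CPM. Not all markers were low there: the cone marker Thrb was at 114 against 92.1 to 106 CPM. All 17 microglia and macrophage markers had a divergence above 0, with a median of 2.27 and 0 past the threshold. Their sum was 122 and 204 CPM in P10 rd1, 55.1 to 74.7 CPM in P6 rd1, 36.4 to 156 CPM in P6 WT and 29.6 to 106 CPM in P10 WT, so the groups overlapped at P6 and not at P10. In 3 of the 17 both P10 rd1 samples lay above the other 10 samples (5.7% of all genes). Trem2, a receptor of microglia, was at 7.51 and 12.6 CPM in P10 rd1 and up to 11.2 CPM in P6 WT (2.95 ± 0.84, adjusted p = 0.285). The part of these cells in the calls, Irf5 and Lmna included, was not tested.

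All 15 ganglion cell markers also had a divergence above 0 (median 1.69, 0 past), with sums of 251 to 291 CPM in P10 rd1, 129 to 177 CPM in P6 rd1, 218 to 477 CPM in P6 WT and 70.3 to 192 CPM in P10 WT. All 15 Müller glia markers were above 0 (median 0.63, 0 past), with 1750 to 1830 CPM in P10 rd1, 1600 to 1810 CPM in P6 rd1, 1010 to 2120 CPM in P6 WT and 506 to 1590 CPM in P10 WT. One of these markers, Clu, did not pass in edgeR (1.21 ± 0.31, adjusted p = 0.214) but passed in DESeq2 (adjusted p = 0.0338) and in limma-voom (adjusted p = 0.0138). All 13 bipolar markers were below 0 (median -1.04, 0 past), with 441 to 660 CPM in P10 rd1, 391 to 447 CPM in P6 rd1, 323 to 609 CPM in P6 WT and 390 to 1760 CPM in P10 WT. Medians were 1.17 for amacrine and horizontal cells (17 tested), -0.62 for cones (13), -0.67 for vessels (14) and 0.32 for pigment epithelium (10), each with 0 past the threshold. Leaving out 1 sample moved the median of Müller glia markers to 0.99 (P10 WT replicate 2), of bipolar markers to -1.63 (P10 rd1 replicate 1), of vessel markers to -0.33 (P6 rd1 replicate 2) or -1.05 (P6 WT replicate 3), and of pigment epithelium markers to 0.06 (P6 rd1 replicate 2) or 1.19 (P6 rd1 replicate 1). In none of these lists was a marker at 0 in all 12 samples, and their part in the calls was not tested.

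**Figure D5:**
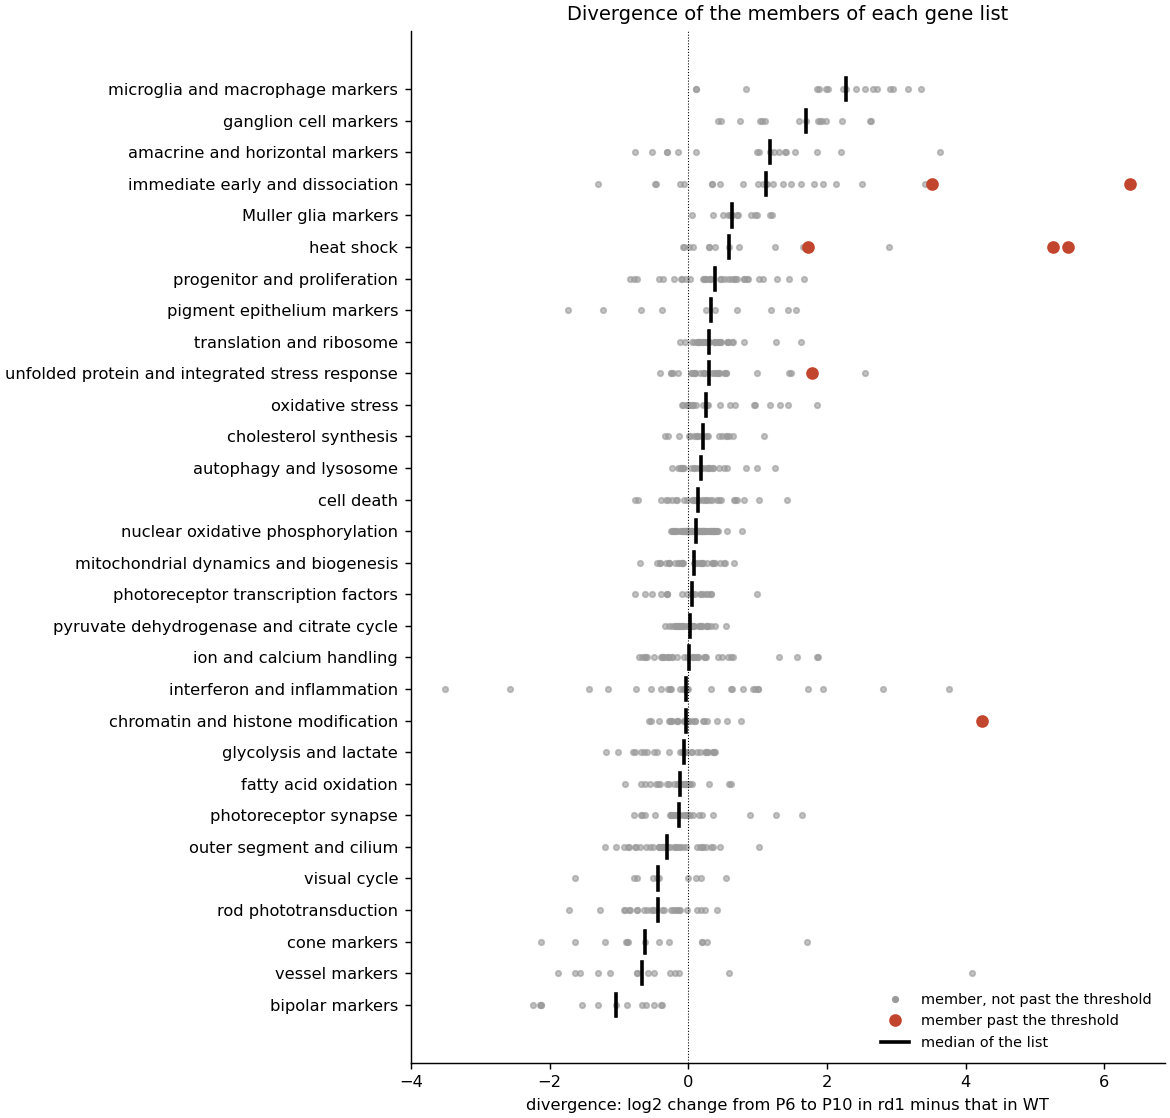
Divergence of each tested member of the 30 gene lists (horizontal axis, log2), with 1 row for each list, ordered by median. Grey dots are members not past the threshold, red dots are members past it and black bars are list medians. The 7 red dots are Npas4, Nr4a1, Hspa1a, Hspa1b, Hsph1, Eif2ak3 and Lmna, and the medians run from -1.04 for bipolar markers to 2.27 for microglia markers.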

How the data were processed

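RNA-seq of sorted rods was analysed from the deposited gene table, which held the authors' expected counts (estimated, fractional). The submitters' processing notes name kallisto 0.42.4, edgeR 3.32.1 and the build GRCm38.p5. Per the labels' protocols, libraries were stranded and read as 125-base pairs. The counts were rounded and fitted with edgeR 4.0.16 in R 4.3.3 (filterByExpr on 10 groups, TMM, quasi-likelihood, 17 residual degrees of freedom) over all 27 samples, so that P6 and P10 share an estimate of spread with the other ages. CPM values were computed from the counts and library totals. Between P6 rd1 replicates 1 and 3 the chi-square over genes, per degree of freedom, came to 2.71, and in 28 other pairs to between 10.4 and 120, so these libraries were averaged under number 1. A further column, 1 in number, matched no sample's label and was left out.

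Benjamini-Hochberg adjustment of the p-values ran over 18608 genes. Each SE was obtained as the size of the log2 change over the root of the F statistic and is approximate near 0 counts. Simulated data with 200 changed genes were used to test the fit, and 2.75% of its calls were false. The changes were placed only in genes above a minimum mean count. The simulated noise was independent between samples, with no library that stood apart. The rule for named genes took Pde6b, the 12 largest divergences in each direction among genes past the threshold whose mean log2 CPM reached 1 and whose name is not a predicted one (with under 5 in a direction, the 8 smallest p), and at most 4 genes from each list, ranked by p. All other genes past the threshold were named after their values were seen. The comparison, its 30 gene lists and the rule were chosen with earlier results of these data known. Lists are described by counts and medians and carry no test. Since 0.168% of all genes diverged, a list with 0 members past the threshold is near that share.

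DESeq2 1.42.0, limma-voom (limma 3.58.1), other scalings and filters, P6 and P10 fitted alone, other treatments of the near-identical libraries, a replicate block and leaving out samples were the alternatives.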

Additional observations from a re-analysis of the deposited data

Results flagged for a closer look

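The change from P6 to P10 differed between rd1 and WT, by the test of the difference itself, in 30 autosomal genes (edgeR quasi-likelihood test with Benjamini-Hochberg adjustment). In 3 of them, Pde10a, Qsox1 and Elmsan1, the gene rose in rd1 and fell in WT, both past the threshold.

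In 82 groups of 4 WT samples tested, 10 had a sample far from the others. The immediate early genes Fos, Egr1, Jun and Junb were added to this check outside the rule for named genes. They gave 6 of the 10, so the total is not comparable with the rate of about 1 in 20 that chance gives. In P6 WT replicate 1, Fos was at 270.0 CPM, Egr1 at 334 CPM, Jun at 321 CPM and Junb at 43.1 CPM. In P10 WT replicate 5, Fos was at 515 CPM and Egr1 at 854 CPM. The same library had the highest Pde6b, at 4138 CPM. Ptprn stood apart at 39.3 CPM in P10 WT replicate 4, Ctnnal1 at 33.8 CPM in P10 WT replicate 3, and Col1a1, a collagen gene, at 1.53 CPM in P10 WT replicate 2.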

How the results depend on the processing

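Of 24 alternatives, 12 left out 1 sample each. No divergence of the 30 genes changed sign in any, and 8 kept their call in all 24 (Hspa1b, Ptprn, Lmna, Pde10a, Ctnnal1, Pttg1, Twsg1 and Eif2ak3). The number of higher genes was 71 by DESeq2, 58 by limma-voom, 58 with no low-count filter, 12 with P6 and P10 fitted alone and 41 with all 28 libraries kept apart. The number of lower genes was 28, 22, 12, 1 and 7 under these settings, and 5 without both P6 WT replicate 1 and P10 WT replicate 5. DESeq2 and limma-voom shared all 30 calls. Leaving out 1 sample gave 9 to 29 higher and 1 to 5 lower genes, 393 to 2509 genes changed in rd1 and 4160 to 5597 in WT. The number changed in rd1 was 4236 by limma-voom and 1207 with P6 and P10 alone. The Pde6b divergence stayed between 0.21 and 0.67 without single samples and did not pass. Of 720 list medians under alternatives 14 moved by more than the spread of that list's median log2 CPM between samples within groups. A list that varied widely between samples could thus shift without being counted. Without single samples the medians ran from 0.33 to 1.57 for immediate early genes and from 1.69 to 2.86 for microglia markers. The cause of these shifts was not tested.

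Samples were not paired by replicate number in the main fit. As deviations from their group means, 11 same-numbered pairs correlated at -0.224 to 0.228. The 2 rd1 samples of an age mirror each other around their mean, and both rd1 pairs gave 0.0391. The values are thus not all separate and cannot show whether samples were paired. With the replicate number as a block, 23 genes were higher and 6 lower, and 23 of the 30 calls were shared.

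With 2 rd1 samples at each age, divergences under 4-fold were often not detectable: 64% of simulated 4-fold changes were recovered and 18.7% of 2-fold ones. These rates leave out genes with few counts.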

Other observations

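A further 33 autosomal genes passed in both DESeq2 and limma-voom but not in edgeR, where their adjusted p lay between 0.0566 and 0.374. They were chosen after their values were seen, 22 higher and 11 lower. Slc26a4, the anion exchanger pendrin, was at 4.04 and 7.03 CPM in P10 rd1 and at most 0.343 CPM in the other 10 samples (divergence 5.69 ± 1.24). Tnfrsf12a, the receptor of the cytokine TWEAK, was at 9.48 and 17.7 CPM in P10 rd1 and at most 3.90 CPM elsewhere (2.84 ± 0.62). Rfx2, a transcription factor gene of ciliated cells, was at 34.3 and 46.6 CPM in P10 rd1 and at most 10.4 CPM elsewhere (1.55 ± 0.37). Stard10, a lipid transfer protein gene, was at 40.1 and 43.6 CPM in P10 rd1 and at most 15.9 CPM elsewhere (1.65 ± 0.37).

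The divergence was 1.46 ± 0.37 for Asns, 2.91 ± 0.75 for Phgdh, which encodes the first enzyme of serine synthesis, and 0.69 ± 0.18 for Aars, the alanyl-tRNA synthetase gene, all past the threshold in these other tools alone. Phgdh was at 11.4 and 12.7 CPM in P10 rd1, 7.40 to 7.42 CPM in P6 rd1, 4.73 to 12.6 CPM in P6 WT and 0.252 to 2.88 CPM in P10 WT, so the WT samples were low at P10. Clu, which encodes the chaperone clusterin and is in the Müller glia marker list, was at 79.8 and 103 CPM in P10 rd1 and at most 54.6 CPM elsewhere (1.21 ± 0.31).

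Among the lower genes were Per3, a circadian clock gene (-0.95 ± 0.23), and Star, which moves cholesterol into mitochondria (-1.01 ± 0.22). Per3 was at 22.3 and 27 CPM in P10 rd1 and at 54.0 to 58.8 CPM in P10 WT. Star was at 6.89 and 6.92 CPM in P10 rd1 and between 10.3 and 16.1 CPM in the other 10 samples. The time of day of collection is not given in the sources used here.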
